A study of Mus musculus with 14 samples.

Results

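Sialyltransferases move sialic acid from its activated form to the ends of glycan chains. St3gal2 is one of them, and the brighter of its 2 probes read lower in splenocytes of Sting gt/gt mice than in those of WT mice. The other probe did not show this difference. St3gal2 was chosen by that difference in these same arrays, so its difference between genotypes is described here without a test. Described with it were its ST3Gal relatives St3gal1, St3gal3, St3gal4, St3gal5 and St3gal6, the enzymes St6gal1 and St8sia4, and 2 enzymes that make or modify the sugar donor and transfer nothing themselves, Cmas and Cmah. These 10 of the 22911 genes with a symbol on the array were represented by 19 of the 56605 probes of the array, and 18 of the 19 were bright enough to be tested among 31766 tested probes. RNA was taken from spleens of 7 WT and 7 Sting gt/gt mice on the C57BL/6 background, 10 to 14 weeks old, 2 weeks after a first intradermal injection of chicken type II collagen (CII) in Freund's complete adjuvant (CFA), and was hybridized on 1 one-colour array per mouse. The Sting gt/gt mice carry the golden ticket allele of Sting in every cell, a chemically induced point mutation that leaves the adaptor of the cytosolic DNA sensing pathway without function. All 14 mice were immunized, so the arrays compared genotypes after immunization only. Per the study's methods the WT mice were bought from a breeding centre and the Sting gt/gt line came from another laboratory, so an effect of the line cannot be told apart from that of the allele.

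Sialic acid is attached to glycoproteins and glycolipids in the Golgi by enzymes named for the sugar they build on and the bond they form. The ST3Gal enzymes cap galactose, St6gal1 caps galactose through another bond that is read by Cd22 on B cells, and St8sia4 extends one sialic acid with further ones to polysialic acid. Cmas activates sialic acid for all of these transferases, and Cmah hydroxylates the activated donor, which changes the sialic acid displayed by mouse cells. On leukocytes, sialylated glycans serve as ligands for Siglec receptors and, when fucosylated, for selectins.

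The arrays were scanned on 2 days, replicates 1 to 3 of both genotypes on the first and replicates 4 to 7 on the second. They lay on 6 slides, and only slide 1 (WT replicates 1 and 2, Sting gt/gt replicate 1) and slide 2 (WT replicate 3, Sting gt/gt replicate 2) held both genotypes. On scan day 2 the 4 Sting gt/gt arrays shared a slide that held no WT array, so slide and genotype cannot be told apart there. The 75th percentile of the processed intensity over all non-control spots lay between 562 and 766 on the 14 arrays. Levels are given as log2 intensity over the 75th percentile of the probes, taken after repeated spots were averaged, which is another value. Sting1, the targeted gene, reached 3.10 ± 0.17 in WT and 3.14 ± 0.11 in Sting gt/gt arrays (SD, n = 7 each), and a point mutation need not lower its RNA. Marker genes of splenic cell types were compared as lists. The mean of the 6 B cell markers was between 1.62 and 2.65 in WT and between 1.74 and 2.41 in Sting gt/gt arrays. All genes of the lists were measurable except Ly6g, a neutrophil surface protein, whose probes were not tested. In whole spleen, fewer cells of a type and less RNA per cell cannot be told apart.

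St3gal2 builds sialylated ends on O-glycans and gangliosides. On scan day 1 its brighter probe, called probe 1, read 2.56, 2.09 and 2.59 on WT replicates 1 to 3 and 2.11, 1.88 and 1.01 on Sting gt/gt replicates 1 to 3. On scan day 2 it read 1.65, 1.76, 2.43 and 2.08 on WT replicates 4 to 7, against 1.29, 1.06, 0.89 and 0.76 on Sting gt/gt replicates 4 to 7. Thus 5 of the 7 Sting gt/gt arrays lay below every WT array, and the other two, replicates 1 and 2, lay within the WT range. These 2 arrays were the ones that shared a slide with WT arrays. The means were 2.16 ± 0.38 in WT and 1.29 ± 0.51 in Sting gt/gt (SD, n = 7 each), a log2 difference of -0.88, which is a level 45.6% lower. Among all tested probes, 1.63% were lower in Sting gt/gt arrays at an unadjusted p under 0.05, and the selection of St3gal2 used this contrast.

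**Figure D1:**
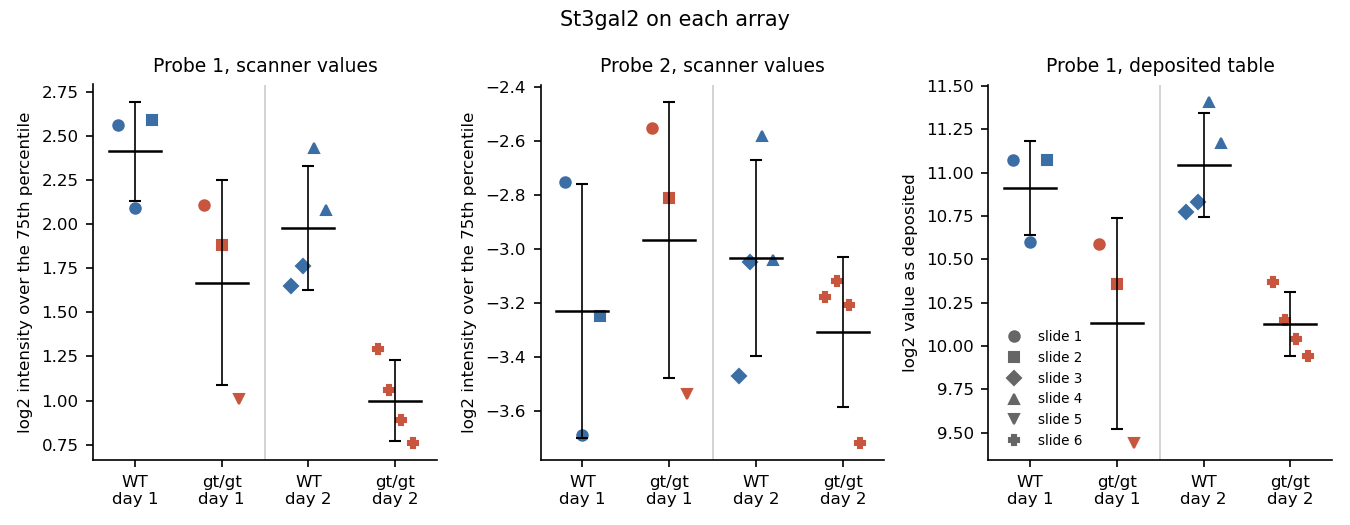
Level of St3gal2 on each array, as log2 intensity over the array's 75th percentile (left and middle, probes 1 and 2) and as the log2 value of the deposited table (right, probe 1). Points are arrays, shaped by slide, and lines and bars are the mean and SD of each genotype and scan day; the differences on the first and the second scan day were -0.75 and -0.98 for probe 1, and 0.26 and -0.27 for probe 2.

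The size of the St3gal2 difference varied with the arrays compared. The difference within scan day 1 came to -0.75 and that within scan day 2 to -0.98. With slide as a fixed block it was -0.43, with a 95% interval from -0.90 to 0.05. In that fit the 5 arrays of slides 1 and 2 set the difference, and all 14 arrays the spread. When slide was a random block over all 14 arrays it was -0.68. Leaving out any single array kept it between -1.02 and -0.79. In the log2 table deposited by the authors, probe 1 was between 10.60 and 11.41 in WT arrays. In Sting gt/gt arrays it was between 9.44 and 10.59, so the highest of them lay just below the lowest WT array. St3gal2 was chosen by this contrast, so this is a description. The share of all tested probes without overlap there is not given here.

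The other St3gal2 probe carries the same RefSeq transcript accession and did not show this difference. Probe 2 lay between -3.69 and -2.58 in WT and between -3.72 and -2.55 in Sting gt/gt arrays, and its log2 difference was -0.04 ± 0.20 (SE), with a 95% interval from -0.47 to 0.38. The processed intensity of probe 2 was 34.8 to 81.4, where the dimmest probes well above background on an array read 16.0 to 28.9. Scan day 1 gave a difference of 0.26 for it, and scan day 2 one of -0.27. Which stretch of the transcript each probe covers was not given in the sources used here.

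Of the 16 tested probes of the other nine genes, over all 14 arrays 0 had an unadjusted p under 0.05 by limma, where 3.46% of all tested probes did, and none passed after Benjamini-Hochberg adjustment over all tested probes (1 of 31766 did). The methods' t-test was replaced by a Mann-Whitney test where either genotype failed a Shapiro-Wilk test of normality. By this rule 1 of the 16 passed at the same unadjusted threshold, beside 1270 of all 31766 tested probes. It was probe 2 of St3gal1, which was lower in Sting gt/gt arrays. The median log2 difference of the 16 probes was -0.09, beside 0.02 for all tested probes. Beside each difference below stands a two-sided exact permutation p over the 14 arrays, not adjusted for the number of probes, and each had an adjusted p of 0.999 by limma.

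St3gal1, which sialylates core O-glycans and shares acceptors with St3gal2, had the lowest exact p among them. Its probe 2 had a lowest, median and highest level of 2.53, 2.76 and 2.92 in WT and of 2.22, 2.55 and 2.93 in Sting gt/gt arrays. The difference was -0.25 ± 0.12 (SE; exact permutation p = 0.0519), and its probe 1 differed by -0.17 ± 0.12 (exact permutation p = 0.156). In both probes 3 Sting gt/gt arrays lay below every WT array, but Sting gt/gt replicate 1 was the highest of all 14 arrays. With scan day in the model, probe 2 passed the unadjusted threshold (adjusted p = 0.685 by limma), as did 7.23% of all tested probes.

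St3gal5, the synthase of the simplest ganglioside, was between 5.29 and 6.06 in WT and between 5.10 and 6.08 in Sting gt/gt arrays. It differed by -0.20 ± 0.15 (SE; exact permutation p = 0.198). St3gal6, which acts on galactose of glycoproteins and glycolipids, differed by -0.26 ± 0.15 for probe 2 and by -0.15 ± 0.24 for probe 1 (exact permutation p = 0.0979 and 0.588). Its probe 1 ranged widely within each genotype, from 0.18 to 1.94 in WT and from 0.26 to 1.5 in Sting gt/gt arrays. St3gal4, which contributes to selectin ligands, lay between 0.15 and 0.47 in WT and between -0.04 and 0.57 in Sting gt/gt arrays. Its difference was -0.03, with a 95% interval from -0.27 to 0.21. For St3gal3 the difference was 0.09 ± 0.11 for probe 1 and 0.05 ± 0.21 for probe 2 (exact permutation p = 0.393 and 0.807). Probe 2 of St3gal3 was well above background on 11 of the 14 arrays.

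St8sia4 was the member with the largest positive difference. Probe 1 had a lowest, median and highest level of 2.39, 3.0 and 3.41 in WT and of 2.78, 3.41 and 3.53 in Sting gt/gt arrays, and 3 Sting gt/gt arrays lay above every WT array. The difference was 0.29 ± 0.16 (SE; exact permutation p = 0.110). It passed the unadjusted threshold with the replicate number as a block and with scan day in the model, at adjusted p = 0.789 and 0.650 by limma. Its probe 2 differed by 0.08 ± 0.11. St6gal1, which makes the ligand of Cd22, was between 0.84 and 1.31 in WT and between 0.70 and 1.45 in Sting gt/gt arrays, a difference of 0.07 ± 0.13 (exact permutation p = 0.569). The other St6gal1 probe was well above background on 2 arrays only and was not tested.

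Cmas, which activates sialic acid, differed by -0.18 ± 0.11 for probe 1 and by -0.24 ± 0.16 for probe 2 (SE; exact permutation p = 0.0944 and 0.167). Probe 1 of Cmas lay between 6.24 and 6.63 in WT and between 6.01 and 6.68 in Sting gt/gt arrays, and 3 Sting gt/gt arrays were below every WT array. For Cmah, which hydroxylates the donor, probe 1 differed by -0.19 ± 0.14, probe 2 by 0.09 ± 0.16 and probe 3 by 0.06 ± 0.13 (exact permutation p = 0.170, 0.603 and 0.662). On probe 1, 4 Sting gt/gt arrays, all of scan day 2, were below every WT array.

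**Figure D2:**
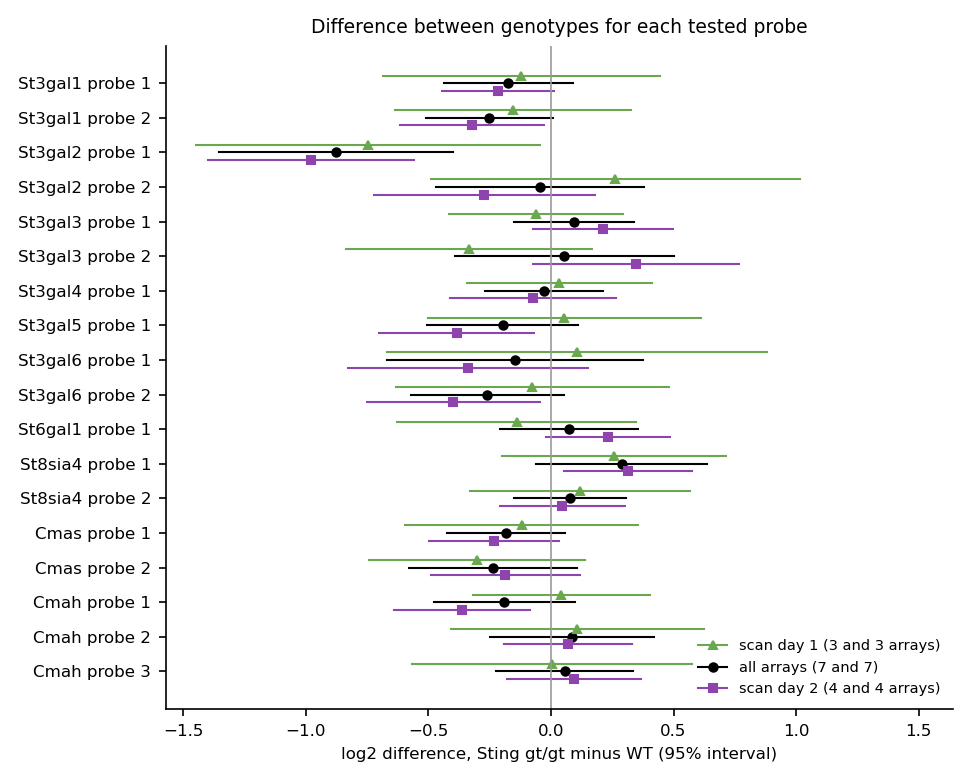
Log2 difference between genotypes (Sting gt/gt minus WT) with its 95% interval for each of the 18 tested probes, over all arrays (circles), on scan day 1 (triangles) and on scan day 2 (squares). Probe 1 of St3gal2 was chosen by this contrast, so its intervals are a description and no test. For every other probe the interval over all arrays included 0, and on scan day 2 the intervals of 5 of them did not.

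The 2 scan days gave different numbers of calls. On scan day 1, with 3 arrays per genotype, none of the 16 probes passed the unadjusted threshold, where 3.76% of all tested probes did. On scan day 2, with 4 arrays per genotype, 4 were lower in Sting gt/gt arrays, beside 10.8% of all tested probes, and 1 was higher, beside 12.1%. The lower ones were St3gal1 probe 2 (-0.32 ± 0.13), St3gal5 (-0.39 ± 0.14), St3gal6 probe 2 (-0.40 ± 0.16) and Cmah probe 1 (-0.36 ± 0.12; adjusted p = 0.182, 0.152, 0.175 and 0.131 by limma). The higher one was St8sia4 probe 1 (0.31 ± 0.12; adjusted p = 0.153 by limma). None of the 5 passed after adjustment. The difference between the scan days itself, tested as an interaction, had an unadjusted p under 0.05 for Cmah probe 1 (adjusted p = 0.270 by limma) and for St3gal3 probe 2 (adjusted p = 0.249 by limma), that is for 2 of 18 probes where 18.1% of all tested probes did. With slide as a fixed block the differences of St3gal5 and both St3gal6 probes were positive, at 0.24, 0.40 and 0.17, with 95% intervals that included 0.

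Several of these values moved with a single array. Taking the brightest tested probe of each gene, Sting gt/gt replicate 1 was the highest of the 14 arrays for St3gal1, St3gal3, St3gal5 and Cmas. Sting gt/gt replicate 7 was the lowest for St3gal2, St3gal4, St3gal5 and Cmas. The median deviation of the 10 genes from the mean of the WT arrays was 0.22 on the former and -0.29 on the latter, and Sting gt/gt replicate 3 was at -0.30. Without Sting gt/gt replicate 1, 6 of the 16 probes of the other nine genes passed the unadjusted threshold, where 7.69% of all tested probes did. These were both probes of St3gal1 (-0.26 and -0.32), St3gal5 (-0.29), St3gal6 probe 2 (-0.35), Cmas probe 1 (-0.25) and, higher, St8sia4 probe 1 (0.37). None of them passed after adjustment. Without WT replicate 2 or WT replicate 7, only St3gal1 probe 2 of the 16 passed, and without WT replicate 4 only St8sia4 probe 1. The share of all tested probes in these fits is not given here. The level of erythroid markers also moved with Sting gt/gt replicates 1, 3 and 7. The mean of 4 of the 5 erythroid markers listed (Klf1, Alas2, Epb42 and Hemgn) was between 4.65 and 5.23 in WT arrays, and in Sting gt/gt replicates 1 to 7 it was 5.38, 4.81, 4.39, 4.66, 4.55, 4.51 and 4.28. It was thus highest on Sting gt/gt replicate 1, lowest on replicate 7 and next lowest on replicate 3, and the genotypes differed by -0.27, by -0.15 on the first scan day and by -0.35 on the second. The mean of the B cell markers was 0.31 higher in Sting gt/gt than in WT arrays on scan day 1 and 0.49 lower on scan day 2. On scan days 1 and 2 the plasma cell mean differed by -0.12 and 0.32, and the neutrophil mean by 0.03 and 0.34. The NK cell mean differed by 0.35 and 0.02. The means of T cells, macrophages and monocytes, dendritic cells, and platelets and megakaryocytes differed by -0.09 to 0.13 on either day. The part of these lists in the differences of St3gal2 and the other enzymes was not tested.

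**Figure D3:**
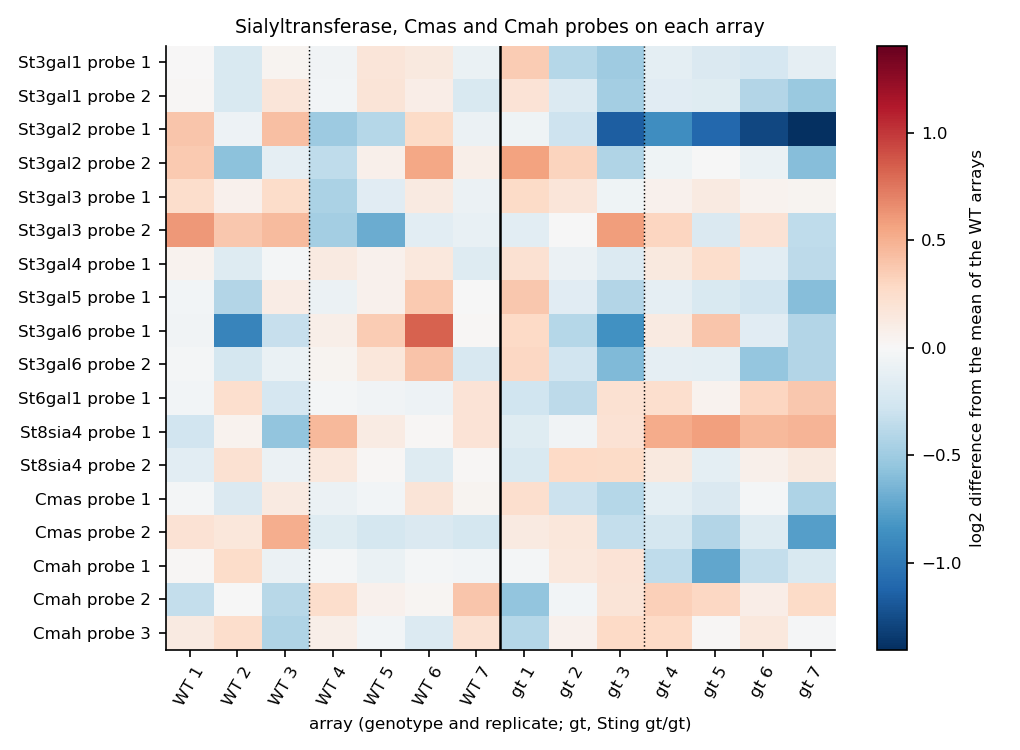
Deviation of each tested probe from its mean over the WT arrays, in log2 units, for the 14 arrays (columns, by genotype and replicate; dotted lines part the scan days). St3gal2 probe 1 is low on Sting gt/gt replicates 3 to 7, and Sting gt/gt replicate 1 is above the WT mean for both St3gal1 probes, St3gal5 and both St3gal6 probes.

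Scan day separated 39.0% of all tested probes at an adjusted p under 0.05 by limma, and 6 of the 18 probes described here. With genotype in the model, 2 of the 18 probes were higher on scan day 2 at an adjusted p under 0.05, beside 18.8% of all tested probes, and 4 were lower, beside 20.3%. St8sia4 probe 1 was higher by 0.49 ± 0.10 (limma, adjusted p = 0.00217) and Cmah probe 2 by 0.40 ± 0.12 (limma, adjusted p = 0.0126). Lower were St3gal2 probe 1 (-0.55 ± 0.18), Cmas probe 2 (-0.45 ± 0.11), St3gal3 probe 2 (-0.50 ± 0.17) and Cmah probe 1 (-0.31 ± 0.11), with adjusted p = 0.0246, 0.00551, 0.0312 and 0.0295 by limma. Probes of 1 gene disagreed here: Cmah probes 1 and 2 moved in opposite directions, and Cmas probe 1 differed by 0.01 where Cmas probe 2 fell. The directions of the calls depended on the scaling. When each array was centred on its median, which shifted the median of all tested probes from 0.01 to 0.17, 44.8% of all tested probes were called, and 4 of the 18 probes, all of them higher (St8sia4 probe 1, Cmah probe 2, St3gal6 probe 1 and St6gal1). Only St8sia4 probe 1 and Cmah probe 2 were called under each of the 5 ways of scaling or background correction applied to the scanner values. Within the WT arrays alone 2 of 18 probes were called, beside 29% of all tested probes, and within the Sting gt/gt arrays alone another 2, beside 20.9%.

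The deposited table held hardly any difference between scan days. In it 0 of the 18 probes had an unadjusted p under 0.05 between scan days by limma, where 1.33% of all tested probes did, and St8sia4 probe 1 differed by 0.12 and St3gal2 probe 1 by 0.06. Between genotypes, 4 of the 16 probes of the other nine genes passed the unadjusted threshold in that table, beside 7.73% of all tested probes. These were Cmas probe 1 (-0.22), Cmas probe 2 (-0.25), St3gal1 probe 2 (-0.25) and St8sia4 probe 1 (0.26), with adjusted p = 0.622, 0.521, 0.596 and 0.637 by limma. For St3gal2 probe 1 the difference was -0.86 in that table and -0.88 in the scanner values.

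**Figure D4:**
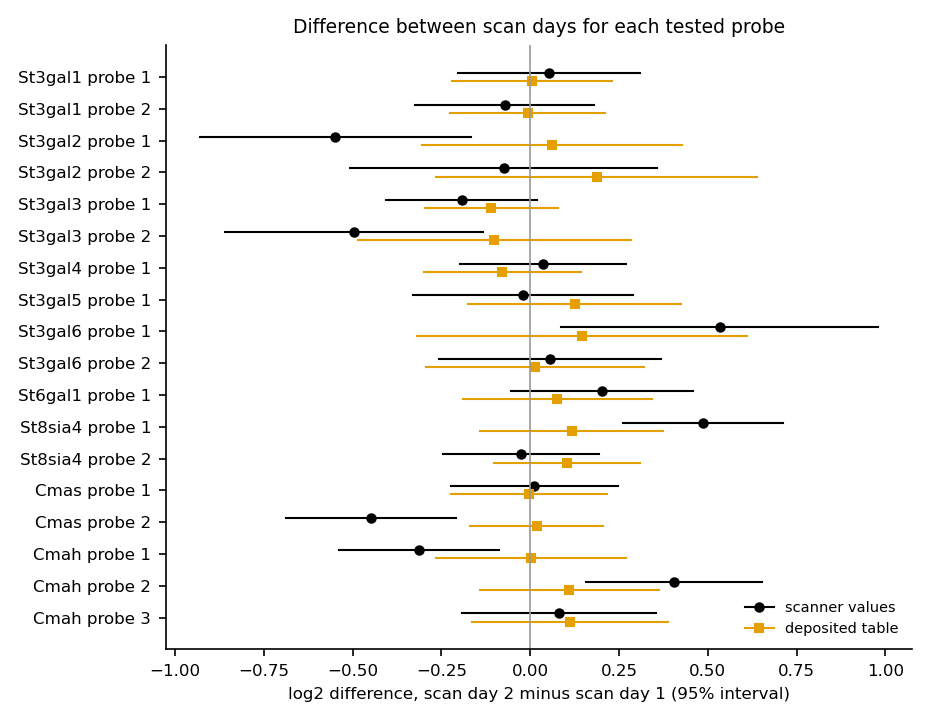
Log2 difference between scan days (day 2 minus day 1) with its 95% interval for each of the 18 tested probes, in the scanner values scaled to the 75th percentile (circles) and in the table deposited by the authors (squares). In the scanner values 7 intervals exclude 0, from -0.55 for St3gal2 probe 1 to 0.53 for St3gal6 probe 1, and in the deposited table none does.

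Around these enzymes, 58 further genes of sialic acid biology were listed by role. Of these 50 were measurable, with 79 tested probes, and 5 probes passed an unadjusted p under 0.05, all of them higher in Sting gt/gt arrays, beside the 3.46% of all tested probes called in either direction. None passed after adjustment. With slide as a fixed block 3 of the 79 passed, all of them lower. In that fit 1273 of all 31766 tested probes passed, 627 of them lower. The median difference of the 79 probes was 0.06, beside 0.02 for all tested probes. Among the other sialyltransferases, which include the enzymes that sialylate N-acetylgalactosamine, 2 of 13 probes passed. St6galnac2 probe 2 was at -2.26 ± 0.39 in WT and -1.6 ± 0.31 in Sting gt/gt arrays (SD, n = 7 each; exact permutation p = 0.00874), while its brighter probe differed by -0.03. St6galnac4 probe 2 was at -4.19 ± 0.31 and -3.66 ± 0.55 (exact permutation p = 0.0379), and its brighter probe differed by 0.25 ± 0.20 (SE).

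Among the receptors of sialic acid 3 of 17 probes passed. Both probes of Pilra, an inhibitory receptor of myeloid cells for sialylated O-glycans, were higher, by 0.32 ± 0.12 and 0.25 ± 0.11 (SE; exact permutation p = 0.0152 and 0.0198). Probe 2 of Siglecf, an eosinophil Siglec, was higher by 0.48 ± 0.19 (exact permutation p = 0.0274), while its brighter probe differed by 0.37 ± 0.21. On scan days 1 and 2 probe 1 of Pilra differed by 0.16 and 0.44, and probe 2 of Pilra by 0.13 and 0.34. For probe 2 of Siglecf the differences were 0.34 and 0.59. Cd22 and Siglecg, inhibitory Siglecs of B cells, did not pass over all arrays, with differences of -0.15 ± 0.18 and -0.21 ± 0.21 for their brightest probes. They differed by 0.35 and 0.46 on scan day 1 and by -0.52 and -0.72 on scan day 2, and the interaction had adjusted p = 0.140 and 0.0778 by limma. The B cell marker mean moved in the same directions on both days, and its part in this was not tested.

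No probe passed in the other roles. Synthesis, transport and breakdown of sialic acid had 0 of 15 probes, sialidases 0 of 4, O-acetylation 0 of 3, makers of acceptor glycans 0 of 13, and selectin ligand makers and carriers 0 of 14. Gne, which starts sialic acid synthesis, differed by 0.06 ± 0.10 (SE, brightest probe). Slc35a1, which carries the activated donor into the Golgi, differed by 0.08 ± 0.13. The sialidases Neu1, of lysosomes, and Neu3, of the plasma membrane, differed by 0.04 ± 0.17 and -0.21 ± 0.17.

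**Figure D5:**
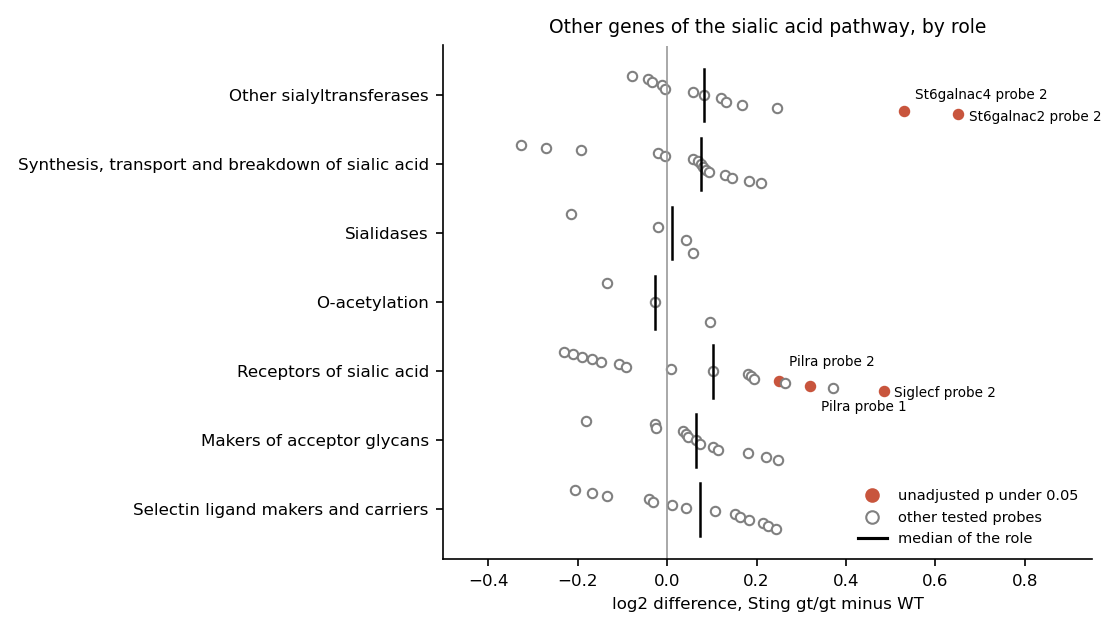
Log2 difference between genotypes (Sting gt/gt minus WT) for the 79 tested probes of the further genes of sialic acid biology, by role. Each point is a probe, filled where its unadjusted p was under 0.05, and the vertical strokes are the medians of each role, which lie between -0.03 and 0.10.

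The genes whose level followed St3gal2 probe 1 over the 14 arrays were sought among 14721 genes with a symbol, each by its brightest tested probe. Among those with the highest Pearson r were Frmd4a, Ints6l, Nxpe2 and Klhl7, with r from 0.906 to 0.907, and from 0.793 to 0.871 once the mean of each genotype and scan day was removed. The 5 with the lowest r were Bcdin3d (-0.954), Dnaaf3 (-0.931), Bri3 (-0.916), Pnck (-0.914) and Pilra (-0.905), and r lay between -0.914 and -0.717 with those means removed. Of the sialyltransferases and donor enzymes, St3gal5 (0.694) and Cmas (0.674) had the highest r with St3gal2 and St8sia4 the lowest (-0.839). These arrays share slides and scan days, so the coefficients are given as a description.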

How the data were processed

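Splenocyte RNA of 7 WT and 7 Sting gt/gt mice was measured on 1 one-colour Agilent array per mouse, and samples were grouped by their labels. Intensity values came from Agilent Feature Extraction 11.0.1.1 as run by the authors, with background subtracted and no normalization across arrays. A second deposited file is a table of log2 values, whose normalization is not given in the sources used here. Its values correlated with the log2 intensity of the same array at 0.997 to 0.999, and each array's median lay between 5.49 and 5.52.

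From the scanner files, log2 processed intensity minus its 75th percentile over the array's probes was used. Outlier-flagged spots were dropped (1301 spots on all arrays, none of the probes named in the Results), and repeated spots were averaged. St6galnac3 probe 2, counted among the further genes of sialic acid biology, thereby lacked a WT value and was fitted without it. Testing required a signal well above background on 7 or more of the 14 arrays. The files carry accessions and no gene names, so probes were named through RefSeq symbols (assembly GRCm38.p6, names only, since the array was designed on mm9), which gave 1 symbol for 32994 probes (58.3%). Probes of a gene were kept apart and numbered from the brightest. Groups were compared with limma 3.58.1 in R 4.3.3, two-sided, and Benjamini-Hochberg adjustment over the 31766 tested probes, and a call was an unadjusted p under 0.05, the study's threshold, with the adjusted p beside it. Scan day calls used the adjusted p. Single values were also tested by two-sided exact permutation of the arrays. Simulated data held scan-day shifts, no slide effect, and 200 probes changed by 1 log2 unit. At an adjusted p under 0.05 the fit with scan day recovered 187 of them and that without it 156. The simulation gives no power for the smaller differences of the other members.

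Alternatives were quantile normalization, median centring, no scaling, normexp correction (offset 50, on the median signal) with quantile normalization, the deposited table, other filters on dim probes, flagged spots kept, the methods' t-test, scan day, slide or replicate number in the model, each scan day alone, array weights, and each array left out. Arrays of the 2 genotypes with the same number deviated together (correlations from 0.15 to 0.52), which pairs them by the rule used here. The numbers follow the scan day, and with scan-day means removed the correlations lay between -0.405 and 0.276. The members, gene lists and tests were chosen with earlier results of these data known. The named genes were all 10 members, Sting1, the pathway genes past the unadjusted threshold with Cd22, Siglecg, Gne, Slc35a1, Neu1 and Neu3, and the genes most and least like St3gal2. The number of arrays limits the precision. Each array is labelled as a mouse of its own, and p-values measure the spread between these arrays. Arrays on the same slide deviated together, with a consensus correlation within slide of 0.43. The main fit and the permutations did not take slide into account. Their p-values may therefore understate the error of the comparison between genotypes. With slide as a random block 581 of all tested probes were called between genotypes, where the main fit called 1098. Some results are not reported here.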

Additional observations from a re-analysis of the deposited data

Results flagged for a closer look

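In 2 of the 36 groups of 7 arrays searched (18 probes in each genotype), 1 array lay far from the others by Dixon's gap over range, above the 95% critical value for 7 values. Chance flags about 1 in 20 groups. Cmah probe 1 was highest on WT replicate 2, at 3.4, with a gap of 0.711 of the range. Cmah probe 2 was lowest on Sting gt/gt replicate 1, at -0.73, with a gap of 0.574 of the range. For no probe of the 10 genes did the interaction of genotype and scan day pass an adjusted p of 0.05 in limma.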

How the results depend on the processing

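The log2 difference of St3gal2 probe 1, -0.88, stayed negative under every alternative and lay between -1.02 and -0.79 when 1 array was left out. It was -0.43 with slide as a fixed block and -0.04 for the other probe of the gene. Of the 16 tested probes of the genes other than St3gal2, 0 were called between genotypes. Counted with the 2 St3gal2 probes, of which probe 1 was chosen on this contrast, the count was 1, against 2 with quantile normalization, 2 without scaling, 3 with normexp, 5 in the deposited table, 2 with the replicate number as a block, 3 with scan day in the model, 6 on scan day 2 alone, 7 with array weights and an intensity trend, 2 by the methods' t-test, and 1 to 7 with 1 array left out. The replicate block changed no other call of a named member than that of St8sia4 probe 1. Of the 79 further probes, 5 were called, against 3 with median centring, 1 without scaling, 3 with normexp, 2 with slide as a random block, 3 with slide as a fixed block (all lower, where the 5 were all higher), 2 on scan day 1, 22 on scan day 2, 19 with array weights, and 3 to 11 with 1 array left out (11 without Sting gt/gt replicate 1, 9 without replicate 2, and 3 without replicate 5 or without WT replicate 4 or 5). Between scan days 6 of 18 probes were called, against 0 in the deposited table, 2 in WT arrays alone, 2 in Sting gt/gt arrays alone, and 4 to 6 with 1 array left out. With slide as a fixed block 1273 of all tested probes were called between genotypes, and by the methods' t-test 1270. Over all tested probes 1098 were called between genotypes, against 581 with slide as a random block, 1813 with the replicate block, 2296 with scan day in the model, 2455 in the deposited table, 6016 with array weights and 7297 on scan day 2. The number was 1173 with quantile normalization, 1004 with median centring, 984 without scaling, 1097 with normexp and 1195 on scan day 1. Without Sting gt/gt replicate 1 it was 2444, and for the other fits with 1 array left out it is not given here. Of the 1098 calls of the main fit 52.8% were higher in Sting gt/gt arrays, against 43.5% after quantile normalization, 29.9% with median centring and 18.2% without scaling. Of the calls between scan days 48.1% were higher on day 2, against 70.8% with median centring and 34.1% without a filter on dim probes.

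By the brightest tested probe of each gene, differences of some other members turned sign under some alternatives. With slide as a fixed block these were St3gal1 (0.08), St3gal4 (0.14), St3gal5 (0.24), St3gal6 (0.40), St6gal1 (-0.28), Cmas (0.016) and Cmah (0.0079). On scan day 1 alone they were St3gal3 (-0.061), St3gal4 (0.034), St3gal5 (0.055), St3gal6 (0.11), St6gal1 (-0.14) and Cmah (0.041). With slide as a random block they were St3gal4 (0.026) and St6gal1 (-0.075), and St3gal4 ranged from -0.072 to 0.030 with 1 array left out, being 0.00023 and 0.030 without Sting gt/gt replicate 3 or 7. The cause was not tested. Signal over background limits probe 2 of St3gal2 and probe 2 of St3gal3, and the number of arrays limits all intervals.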
